A study of Mus musculus with 16 samples.

Results

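The genes described here carry and control signalling by bone morphogenetic proteins (BMPs) and transforming growth factor β (TGF-β). They were chosen by name, 43 genes in all: 6 BMP ligands, 5 TGF-β and activin ligands, the protease Bmp1, 6 secreted antagonists, the pseudoreceptor Bambi, 4 latent TGF-β binding proteins, 8 receptors and co-receptors, 6 receptor-activated or common Smads, 2 inhibitory Smads and the 4 Id genes. All 43 were found among the 22180 genes that had a probe set naming 1 gene, each with 1 probe set, and 41 were bright enough to be tested. Bmp5 and Chrdl1 lay below the limit for testing in every group mean, and no call was made for them.

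BMP and TGF-β ligands bind pairs of type I and type II receptors, which phosphorylate receptor Smads. Smad1, Smad5 and Smad9 serve the BMP branch, Smad2 and Smad3 the TGF-β and activin branch, and Smad4 joins both. In the intestine, BMP signalling is strong towards the villus and is held back around the crypt by antagonists made by stromal cells, while TGF-β restrains epithelial growth and promotes matrix production by fibroblasts. The Id genes are direct targets of BMP Smads in many cell types, and they encode proteins that block E-protein transcription factors.

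Expression was measured on microarrays of small intestinal cells of C57Bl/6 mice, all labelled male and killed at 8 to 10 weeks. Wild-type crypt epithelium was grown as organoids in Matrigel, alone (2 animals, P28 and P30) or in indirect co-culture with wild-type myofibroblasts of the intestine (the same 2 animals). Wild-type fibroblasts were profiled alone (3 animals, Pl_I, Pl_II and Pl_III) and in co-culture (the same 3 animals). In co-culture the myofibroblasts sat on an insert with 0.4 µm pores above the organoids for 24 h in Basal Medium, after a night in RPMI with 10% serum. Adenoma cells came from 4 Apc+/1638N animals, which carry 1 mutant copy of Apc, the brake on Wnt signalling. The titles of 2 of these animals, P21 and P23, contain T2, which the labels do not define, and those of P34 and P36 do not. How adenoma cells were obtained and whether they were cultured like the organoids is not given either, since their protocol text is that of the wild-type cultures, so genotype, tumour and culture cannot be told apart. All levels below are log2 levels, given in the order P28 and P30 for epithelium, P21, P23, P34 and P36 for adenoma, and Pl_I, Pl_II and Pl_III for fibroblasts. Differences are log2 differences ± SE from limma, and "called" means an adjusted p under 0.05 over the 18095 genes tested. Each gene was read by its own probes, so levels are compared between samples and not between genes.

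The 15 epithelial markers averaged 11.09 to 11.13 in organoids alone, 11.25 to 11.43 in co-cultured organoids, 8.94 to 10.23 in adenoma and 3.15 to 3.63 in fibroblasts alone. The 16 fibroblast markers averaged 9.53 to 9.79 in fibroblasts alone, 9.48 to 9.85 in co-culture and between 3.12 and 3.49 in every epithelial or adenoma sample. The fibroblast samples also held markers of another cell type: 15 leukocyte markers averaged 8.07 to 8.87 alone and 8.14 to 8.91 in co-culture, against 3.74 to 4.13 in epithelium and adenoma. The 8 endothelial markers averaged at most 3.35 in any sample. Arrays P21 and P23 resembled each other nearly as closely as 2 arrays of 1 animal (SD of gene differences 0.291, against 0.282 for the repeats of P21), as did P34 and P36 (0.314), so each pair may not vary as 2 independent animals do. Both cultures of P28 and of Pl_III had high Xist (7.57 to 8.29) and low Eif2s3y (2.53 to 3.20), against their labels, and the third fibroblast monoculture is called Pl_III in its title and Pl_II in its source name. The median of an array ranged from 3.48 to 3.58, and precision is limited by how few arrays there are.

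Most of these genes separated the stroma from the epithelium. Of the 41 tested members, 25 were called higher and 4 lower in fibroblasts than in epithelium when both grew alone, 70.7% of the members against 50.7% of all genes tested. In co-culture 26 were higher and 3 lower, again 70.7%, against 45.1% of all genes. Higher in fibroblasts were 61.0% of the members alone and 63.4% in co-culture, against 26.5% and 23.9% of all genes. Lower were 9.76% and 7.32%, against 24.2% and 21.2%. Both cultures of a cell type come from the same animals. In both, 23 members were called higher and 2 lower (Bmp7 and Id1), and the share of all genes called in both was not computed. Adenoma differed from epithelium alone for 13 members (10 higher and 3 lower), 31.7% against 41.0% of all genes, and from co-cultured epithelium for 12 (9 higher and 3 lower), 29.3% against 33.3%. By direction, 24.4% and 22.0% of the members were higher, against 22.5% and 19.0% of all genes, and 7.32% in each comparison were lower, against 18.5% and 14.3%. Co-culture changed the level of 0 members past the threshold in epithelium, where 4.03% of all genes passed, and of 0 members in fibroblasts, where 0.00553% (1 gene) passed. That fit did not pair the 2 cultures of an animal. With the animal as a replicate block, 2 members passed in epithelium (4.88%, against 7.57% of all genes). In fibroblasts 0 members passed with the block, against 0.0221% of all genes. In bulk RNA, fewer cells of a type and less RNA per cell cannot be told apart, here and in all that follows.

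**Figure D1:**
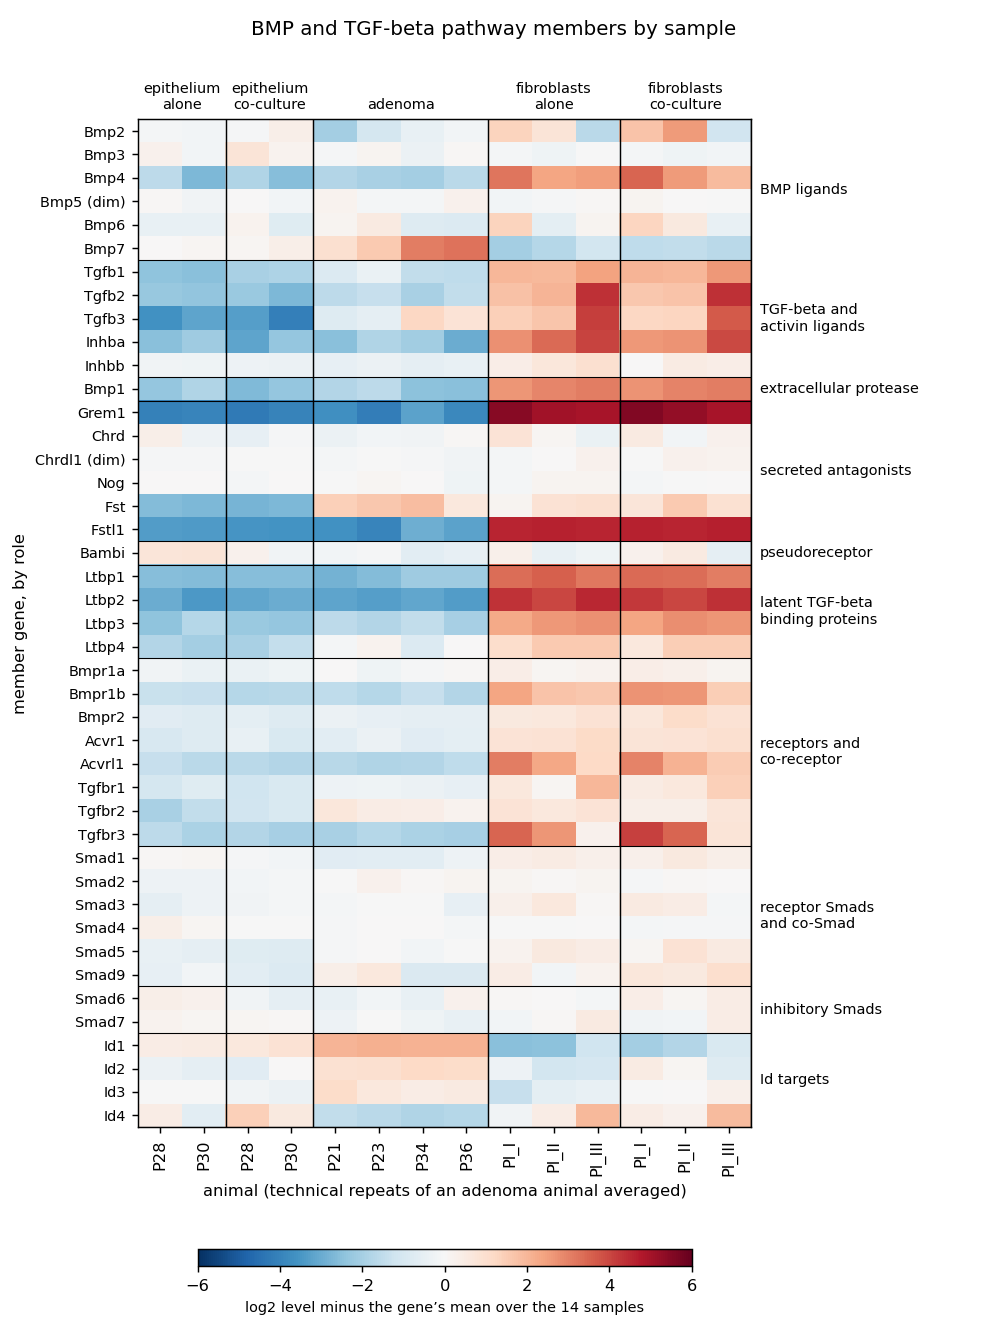
Level of each of the 43 members (rows, by role) in each of the 14 samples (columns, by group) as the log2 difference from the gene's mean over the 14 samples, blue for lower and red for higher. Most ligands, latent TGF-β binding proteins and receptors are red in the 6 fibroblast samples, while Fst, Bmp7 and Id1 to Id3 are red in the 4 adenoma samples.

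Of the 5 BMP ligands tested, Bmp4 was the 1 called higher in fibroblasts. Bmp4, which is made by fibroblasts beneath the villus epithelium, lay at 9.30, 8.42 and 8.58 in fibroblasts alone and 9.58, 8.61 and 7.98 in co-culture. In epithelium it lay at 4.49 and 3.39 alone and 4.28 and 3.52 in co-culture, and in adenoma at 4.33, 4.15, 4.02 and 4.44. All 6 fibroblast samples were above all 8 others, with a difference of 4.83 ± 0.45 alone (adjusted p = 2.09e-06) and 4.82 ± 0.45 in co-culture (adjusted p = 2.49e-06).

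Bmp7, a ligand expressed by many epithelia, was highest in adenoma. Its levels were 5.99, 6.59, 8.10 and 8.29 in adenoma, 5.04 and 5.13 in epithelium alone and 5.14 and 5.36 in co-cultured epithelium. In fibroblasts it reached 2.97, 3.31 and 3.94 alone and 3.49, 3.53 and 3.41 in co-culture. The 3 cell types did not overlap, and the 4 adenoma samples fell into a lower pair (P21 and P23) and a higher pair (P34 and P36). Bmp7 was higher in adenoma than in epithelium alone by 2.16 ± 0.54 (adjusted p = 0.00619) and lower in fibroblasts by 1.68 ± 0.56 (adjusted p = 0.026).

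Bmp2, a ligand made by both epithelial and stromal cells, varied widely between fibroblast animals. Fibroblasts had 6.58, 6.00 and 3.60 alone and 6.95, 7.78 and 4.08 in co-culture, and both Pl_III samples were over 1 unit below the other 4. Epithelium had 5.09 and 5.06 alone and 5.15 and 5.59 in co-culture, and adenoma had 3.19, 4.15, 4.79 and 5.04. All 4 adenoma samples were below the epithelial ones, yet the SE was wide (-0.78 ± 0.97 against epithelium alone, adjusted p = 0.581). Bmp6 ranged from 3.61 to 5.74 and was called in none of the comparisons with all groups fitted. Bmp3, a member of the family that opposes other BMPs, ranged from 2.61 to 3.71, with its highest group mean in co-cultured epithelium, and was lower than there in adenoma (-0.53 ± 0.19, adjusted p = 0.0486) and in co-cultured fibroblasts (-0.66 ± 0.20, adjusted p = 0.0168). Bmp5 never left the range of 2.24 to 2.70.

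All 5 TGF-β and activin ligands were called higher in fibroblasts than in epithelium, alone and in co-culture. Tgfb3 lay at 8.81, 9.04 and 11.55 in fibroblasts alone and 8.62, 8.67 and 11.09 in co-culture, against 3.77 and 4.21 in epithelium alone and 4.08 and 3.31 in co-culture. Adenoma cells held 6.62, 6.87, 8.64 and 8.24, above every epithelial sample and, for P34 and P36, close to fibroblasts Pl_I and Pl_II. The differences from epithelium alone were 5.81 ± 0.93 for fibroblasts (adjusted p = 0.000209) and 3.60 ± 0.88 for adenoma (adjusted p = 0.00561). Fibroblast markers averaged 3.12 to 3.36 in adenoma and 3.45 to 3.49 in epithelium alone, and the part of fibroblasts in the Tgfb3 level of adenoma was not tested.

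Tgfb1, the ligand of immune and stromal cells, lay at 9.98, 9.95 and 10.42 in fibroblasts alone, 10.03, 9.99 and 10.61 in co-culture and 7.17, 7.62, 6.52 and 6.48 in adenoma. Epithelium had 5.60 and 5.48 alone and 6.07 and 6.14 in co-culture, the lowest levels of all groups. Adenoma was higher than epithelium alone by 1.41 ± 0.30 (adjusted p = 0.00243) and fibroblasts by 4.58 ± 0.32 (adjusted p = 1.54e-07). Leukocytes also make Tgfb1, and the leukocyte markers of the fibroblast samples move with this difference; their part in it was not tested. Tgfb2 was higher in fibroblasts by 5.04 ± 0.83, and both Pl_III samples (10.16 and 10.15) were over 1 unit above the other 4, as they were for Tgfb3. Tgfb2 was not called in adenoma with all groups fitted. Fitted on the groups compared only, Tgfb2 was called higher in adenoma against both epithelial cultures.

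Inhba, the subunit of activin A, which signals through Smad2 and Smad3, lay at 7.96, 8.61 and 9.29 in fibroblasts alone and 7.83, 7.91 and 9.20 in co-culture. In epithelium it lay at 2.71 and 3.10 alone and 2.06 and 2.90 in co-culture, and in adenoma at 2.69, 3.44, 3.15 and 2.24, near the limit of 2.67 below which genes were not tested. The difference between fibroblasts and epithelium alone was 5.72 ± 0.49 (adjusted p = 1.07e-06). Inhbb, the subunit of activin B, spanned a narrow range: 3.83, 4.07 and 4.38 in fibroblasts alone, 3.43, 3.90 and 3.82 in co-culture, and 2.89 to 3.21 in all other samples. It was higher in fibroblasts by 0.92 ± 0.17 (adjusted p = 0.000754).

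Bmp1, a protease that cuts procollagens and the antagonist chordin, lay at 10.60, 10.87 and 11.01 in fibroblasts alone and 10.64, 10.90 and 10.98 in co-culture. Epithelium had 5.58 and 6.11 alone and 5.27 and 5.58 in co-culture, and adenoma 6.17, 6.36, 5.46 and 5.41. The 6 fibroblast samples spanned 10.60 to 11.01 and lay 4.97 ± 0.29 above epithelium alone (adjusted p = 3.05e-08), while adenoma did not differ from it by test (0.00 ± 0.27, adjusted p = 0.995).

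Of the 5 antagonists tested, Grem1 and Fstl1 were high in fibroblasts and Fst in both fibroblasts and adenoma. Grem1, which binds BMPs and is a marker of the stroma around crypts, was high in fibroblasts and dim elsewhere. It lay at 11.99, 11.56 and 11.45 in fibroblasts alone and 12.06, 11.80 and 11.46 in co-culture. Elsewhere it stayed near or below the limit for testing, 2.67, at 2.47 and 2.56 in epithelium alone, 2.30 and 2.50 in co-culture and 2.86, 2.36, 3.30 and 2.64 in adenoma. Fibroblasts alone were called higher than epithelium alone (adjusted p = 7.31e-11). Since the epithelial mean lay below the limit, the size of the difference is given from that limit, at least 8.99 (at least 509-fold higher on these arrays). Fstl1, a secreted glycoprotein of the follistatin family, repeated this pattern, at 11.54, 11.59 and 11.57 alone and 11.61, 11.58 and 11.65 in co-culture against 3.65 and 3.59 alone and 3.43 and 3.41 in co-culture in epithelium and 3.36, 3.04, 4.06 and 3.79 in adenoma (7.95 ± 0.23, adjusted p = 8.06e-11).

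The promoter of Grem1 is shown because every fibroblast sample stood far above every other sample for this gene. The 250 bases before its start are on the minus strand of chr2:113758649-113758898 (RefSeq, GRCm38.p6). Capitals here and below mark matches on either strand to GGCGCC, an element bound by BMP Smads, and to CAGAC, the Smad box; the 2 motifs overlapped in none of the 5 promoters shown.
Grem1: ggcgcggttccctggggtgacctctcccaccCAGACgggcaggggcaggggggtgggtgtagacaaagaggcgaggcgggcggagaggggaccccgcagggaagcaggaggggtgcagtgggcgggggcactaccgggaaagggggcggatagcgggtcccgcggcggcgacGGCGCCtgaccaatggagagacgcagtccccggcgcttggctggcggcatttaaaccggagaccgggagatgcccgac
This stretch held 1 match to each motif. Of 32851 promoter entries of the same length, 9.59% held GGCGCC and 42.2% held CAGAC; among 36 entries of the 28 members with one, the shares were 30.6% and 38.9%. The Grem1 stretch is 72.0% G and C, against a median of 52.4% for all entries. A match is a description of the letters and not evidence of binding.

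Fst, the follistatin gene, whose product captures activins and some BMPs, was higher in adenoma and fibroblasts than in epithelium. Adenoma had 7.27, 7.43, 7.67 and 6.46, and epithelium had 3.22 and 3.13 alone and 3.05 and 3.10 in co-culture. Fibroblasts had 5.96, 6.67 and 6.78 alone and 6.56, 7.40 and 6.73 in co-culture, so that their range overlapped that of adenoma and neither overlapped that of epithelium. Adenoma was higher than epithelium alone by 4.03 ± 0.33 (16.4-fold, adjusted p = 1.65e-06) and than co-cultured epithelium by 4.13 ± 0.33 (adjusted p = 2.95e-06). Both calls held in every alternative run. Chrd (3.01 to 4.33) and Nog (3.20 to 3.60), the chordin and noggin antagonists of BMPs, were called in no comparison, and Chrdl1 ranged from 1.96 to 2.43.

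**Figure D2:**
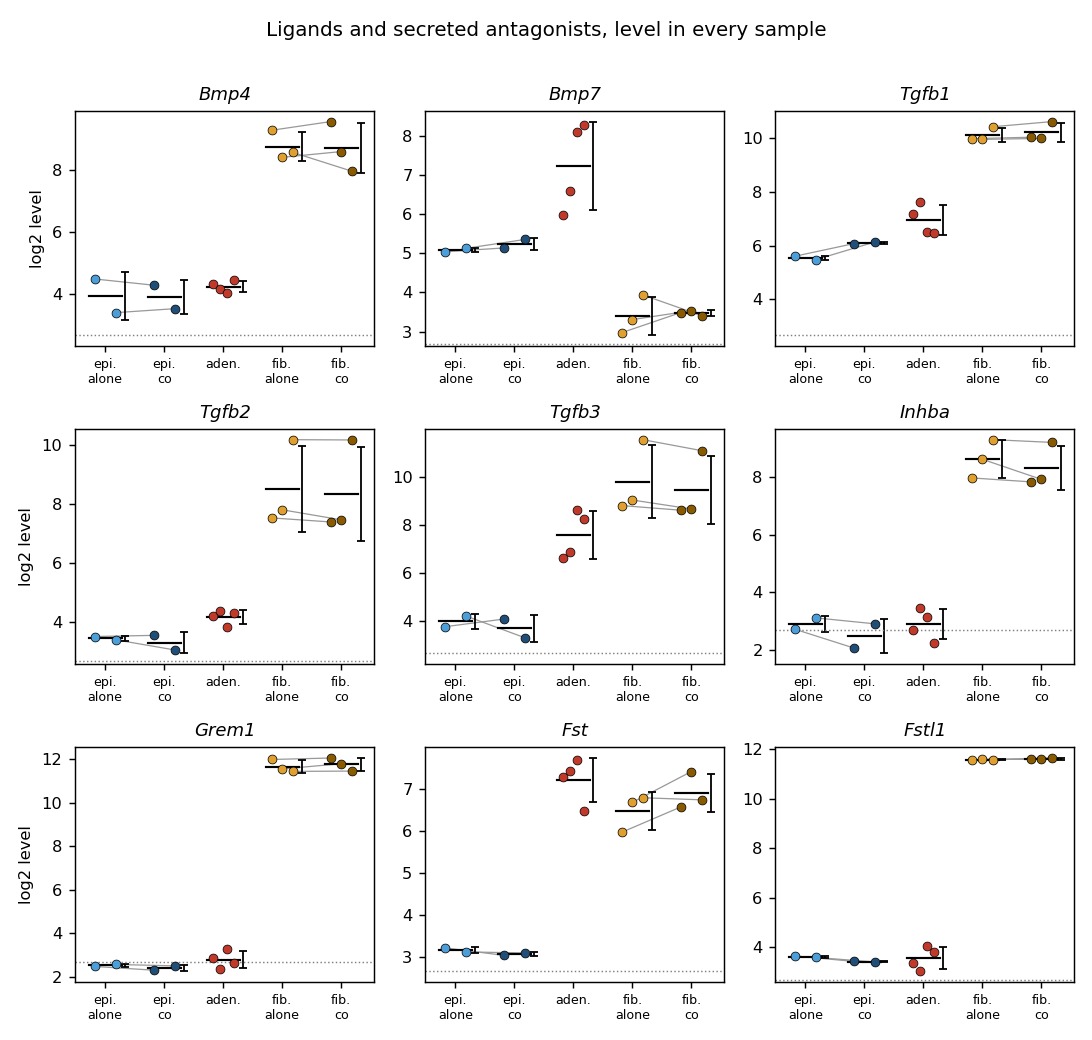
Log2 levels of selected ligands and antagonists in the 5 groups; points are samples, black lines means, bars SDs, grey lines join the 2 cultures of an animal, and the dotted line marks the limit for testing (2.67). Grem1 is at 11.45 or more in all fibroblast samples and at 3.30 or less in all others, and Fst is at 5.96 or more in adenoma and fibroblasts and at 3.22 or less in epithelium.

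Bambi, a receptor without a kinase that blocks TGF-β and BMP signals and is itself a Wnt and TGF-β target, was highest in epithelium alone (5.51 and 5.57). Co-cultured epithelium had 5.04 and 4.57, adenoma 4.63, 4.70, 4.17 and 4.32, and fibroblasts 5.11, 4.36 and 4.52 alone and 5.05, 5.33 and 4.24 in co-culture. Both epithelial samples grown alone were above the samples of every other group. Adenoma was lower than epithelium alone by 1.08 ± 0.30 (adjusted p = 0.0111) and fibroblasts by 0.88 ± 0.31 (adjusted p = 0.0341).

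The 4 latent TGF-β binding proteins, which tie inactive TGF-β into the matrix, were all called higher in fibroblasts, by between 3.28 and 7.50 alone. Ltbp2 lay at 10.74, 10.44 and 10.95 alone and 10.65, 10.41 and 10.79 in co-culture, against 2.99 to 3.45 in all 8 epithelial and adenoma samples (7.50 ± 0.19, adjusted p = 2.85e-11). Ltbp1 lay at 9.08, 9.30 and 8.91 alone and 9.15, 9.08 and 8.80 in co-culture in fibroblasts, at 3.18 and 3.14 alone and 3.15 and 3.18 in co-culture in epithelium and at 2.88, 3.11, 3.62 and 3.60 in adenoma (5.94 ± 0.22, adjusted p = 5.92e-10). Ltbp3, at 8.56, 8.93 and 9.03 alone and 8.67, 9.09 and 8.98 in co-culture in fibroblasts, 3.90 and 4.59 alone and 4.09 and 4.01 in co-culture in epithelium and 4.73, 4.56, 4.85 and 4.32 in adenoma, was likewise stromal (4.59 ± 0.23). Of the group only Ltbp4 was called in adenoma.

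Ltbp4 lay at 5.91, 6.23, 5.17 and 6.05 in adenoma, between 4.27 and 3.98 in epithelium alone or 4.05 and 4.56 in co-culture and 7.06, 7.59 and 7.58 or 6.66, 7.50 and 7.49 in fibroblasts. The adenoma samples overlapped no other group. The difference from epithelium alone was 1.72 ± 0.32 (adjusted p = 0.000887), and that from co-cultured epithelium 1.53 ± 0.32 (adjusted p = 0.00279).

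All 8 receptors and co-receptors were called higher in fibroblasts than in epithelium in both settings. Tgfbr2, the type II receptor of TGF-β, was the 1 receptor called in adenoma with all groups fitted. It lay at 7.71 and 8.17 in epithelium alone, 8.48 and 8.74 in co-culture and 10.32, 10.10, 10.02 and 9.87 in adenoma. In fibroblasts it lay at 10.44, 10.26 and 10.46 alone and 10.00, 9.99 and 10.36 in co-culture, a range that overlapped adenoma. The difference between adenoma and epithelium alone was 2.13 ± 0.18 (4.39-fold, adjusted p = 1.56e-06), and against co-cultured epithelium it was 1.47 ± 0.18 (adjusted p = 6.38e-05).

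Tgfbr1, the type I partner of Tgfbr2, lay at 6.04 and 6.35 alone and 5.90 and 6.18 in co-culture in epithelium, 6.76, 6.84, 6.70 and 6.58 in adenoma and 7.69, 7.20 and 9.05 alone and 7.58, 7.70 and 8.51 in co-culture in fibroblasts. Its adenoma samples were above epithelium without overlap, but the difference was not called with all groups fitted (0.52 ± 0.41, adjusted p = 0.35). Fitted on the groups compared only, Tgfbr1 was called higher in adenoma against both epithelial cultures. The other alternatives did not call it. Tgfbr3, the co-receptor betaglycan, lay at 8.44, 7.58 and 5.22 alone and 9.05, 8.43 and 5.74 in co-culture in fibroblasts, with both Pl_III samples over 1 unit below the rest, and from 2.97 to 3.36 elsewhere (3.88 ± 0.92, adjusted p = 0.00375). Acvrl1, a type I receptor best known from endothelium, lay at 8.31, 7.56 and 6.42 alone and 8.20, 7.32 and 6.73 in co-culture in fibroblasts and from 3.44 to 3.85 elsewhere (3.70 ± 0.47, adjusted p = 3.07e-05). The 8 endothelial markers averaged 2.96 to 3.22 in fibroblasts alone and 2.94 to 3.07 in co-culture, against 3.09 to 3.35 in epithelium alone. The fibroblast samples also held leukocyte markers, and which of their cells carried Acvrl1 was not tested.

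The BMP receptors differed in degree. Bmpr1b was called higher in fibroblasts, at 5.40 to 6.63, than in epithelium alone (adjusted p = 4.46e-06). It lay at 2.16 to 2.60 in epithelium and adenoma, where all 3 group means were below the limit for testing, so that it was tested only because of the fibroblasts and its difference from epithelium alone, taken from the limit, was at least 3.16. Acvr1, Bmpr2 and Bmpr1a, found in all groups, were higher by 1.81 ± 0.17, 1.41 ± 0.15 and 0.54 ± 0.14. None of these 4 was called in adenoma, where Bmpr1a differed from epithelium alone by 0.22 ± 0.14 and Bmpr2 by 0.24 ± 0.14.

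The promoter of Tgfbr2 is shown as that of the receptor with the clearest adenoma difference. Its 250 bases before the start, on the minus strand of chr9:116175364-116175613 (RefSeq, GRCm38.p6), held 1 match to CAGAC and 0 to GGCGCC.
Tgfbr2: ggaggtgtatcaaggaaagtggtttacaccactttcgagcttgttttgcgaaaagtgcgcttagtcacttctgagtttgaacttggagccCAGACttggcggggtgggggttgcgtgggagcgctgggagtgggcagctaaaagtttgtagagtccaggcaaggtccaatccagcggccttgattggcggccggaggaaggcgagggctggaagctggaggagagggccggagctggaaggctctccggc

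Of the 6 receptor-activated and common Smads, 2 were called in each adenoma comparison and 3 in each comparison of fibroblasts with epithelium. Smad1, of the BMP branch, lay at 7.09 and 7.12 in epithelium alone, 6.94 and 6.88 in co-culture and 6.36, 6.39, 6.38 and 6.70 in adenoma, and at 7.40, 7.50 and 7.31 alone and 7.31, 7.60 and 7.36 in co-culture in fibroblasts. Every adenoma sample was below every other sample, and the difference from epithelium alone was -0.65 ± 0.13 (adjusted p = 0.00166). Smad5, of the same branch, lay on the other side: 5.87 and 5.81 alone and 5.63 and 5.56 in co-culture in epithelium, 6.26, 6.38, 6.16 and 6.33 in adenoma and 6.53, 6.91 and 6.77 alone and 6.47, 7.19 and 6.86 in co-culture in fibroblasts. It was not called against epithelium alone (0.44 ± 0.18, adjusted p = 0.0651) and was called higher in adenoma than in co-cultured epithelium (0.69 ± 0.18, adjusted p = 0.00939). Smad9, the third BMP Smad, lay at 2.84 and 3.13 alone and 2.68 and 2.51 in co-culture in epithelium, 3.67, 3.93, 2.45 and 2.44 in adenoma and 3.78, 3.17 and 3.55 alone and 4.01, 3.91 and 4.34 in co-culture in fibroblasts, and both T2 samples were over 1 unit above the other adenoma samples.

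In the TGF-β branch, Smad2 was higher in adenoma than in epithelium alone by 0.43 ± 0.11 (adjusted p = 0.00742). Smad3 lay at 7.21 and 7.45 alone and 7.52 and 7.63 in co-culture in epithelium, 7.64, 7.72, 7.73 and 7.26 in adenoma and 8.04, 8.39 and 7.80 alone and 8.29, 8.20 and 7.64 in co-culture in fibroblasts, with overlap between adenoma and epithelium (0.26 ± 0.22, adjusted p = 0.396) and a higher level in fibroblasts alone (0.75 ± 0.23, adjusted p = 0.0164). Smad4, shared by both branches, ranged in the 14 samples from 9.36 to 9.85, and no comparison called it.

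The inhibitory Smads, which are induced by the pathway and feed back on its receptors, gave 1 call in adenoma. Smad6 lay at 6.95 and 6.86 in epithelium alone, 6.39 and 6.03 in co-culture, 6.15, 6.40, 6.16 and 6.83 in adenoma and 6.66, 6.59 and 6.47 alone and 6.97, 6.72 and 7.02 in co-culture in fibroblasts. It was called lower in adenoma than in epithelium alone (-0.52 ± 0.19, adjusted p = 0.0448), and 11 of 18 alternatives ended that call. Smad7 lay at 7.03 and 6.90 alone and 6.94 and 6.87 in co-culture in epithelium, 6.52, 6.76, 6.57 and 6.35 in adenoma and 6.65, 6.85 and 7.33 alone and 6.61, 6.65 and 7.25 in co-culture in fibroblasts, and was not called (-0.41 ± 0.22, adjusted p = 0.153).

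Of the 4 Id genes, Id1, Id2 and Id3 were higher in adenoma and Id4 had its lowest levels there. Id1 lay at 8.916, 9.002, 8.950 and 8.948 in adenoma, 7.33 and 7.37 in epithelium alone and 7.51 and 7.74 in co-culture. In fibroblasts it lay at 4.38, 4.41 and 5.66 alone and 4.83, 5.10 and 5.93 in co-culture. The 4 adenoma animals spanned 8.916 to 9.002 and were the highest samples, and the 6 fibroblast samples the lowest, with no overlap between cell types. Id1 was higher in adenoma than in epithelium alone by 1.61 ± 0.35 (3.04-fold, adjusted p = 0.00252) and lower in fibroblasts by 2.53 ± 0.37 (adjusted p = 9.22e-05).

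Id2 was also highest in adenoma, at 10.73, 10.77, 11.01 and 10.89, against 9.48 and 9.29 in epithelium alone and 9.11 and 9.83 in co-culture. Fibroblasts had 9.52, 8.74 and 8.82 alone and 10.29, 9.91 and 9.02 in co-culture, a range that overlapped epithelium but not adenoma. Id3 lay at 9.05, 8.61, 8.42 and 8.52 in adenoma, 7.92 and 7.93 in epithelium alone and 7.73 and 7.60 in co-culture, with 6.58, 7.39 and 7.50 alone and 7.95, 8.01 and 8.29 in co-culture in fibroblasts. Against epithelium alone Id2 was higher in adenoma by 1.46 ± 0.33 (adjusted p = 0.0031) and Id3 by 0.73 ± 0.25 (adjusted p = 0.0321).

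Id4, unlike the other 3, was low in adenoma. Its levels were 3.54, 3.39, 3.18 and 3.29 in adenoma, 5.43 and 4.35 in epithelium alone, 6.41 and 5.59 in co-culture, and 4.76, 5.45 and 6.96 alone and 5.44, 5.25 and 6.89 in co-culture in fibroblasts. All 4 adenoma samples were below all 10 others, and both Pl_III samples were over 1 unit above the other fibroblasts. The difference from epithelium alone missed the threshold (-1.54 ± 0.58, adjusted p = 0.0514) but passed it in 7 of 18 alternatives, among them that with the animal as a random replicate block (adjusted p = 0.0262), and that from co-cultured epithelium passed it (-2.65 ± 0.58, adjusted p = 0.00377). The 2 arrays of P21 differed by 0.897 for Id4, the widest gap of any member between the repeats of that animal.

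The promoters of Id2, Id3 and Id4 are shown because these genes share a known regulator and differ in direction. They are the 250 bases before each start, on the minus strand of chr12:25096093-25096342 for Id2 and on the plus strands of chr4:136143572-136143821 for Id3 and chr13:48260866-48261115 for Id4 (RefSeq, GRCm38.p6).
Id2: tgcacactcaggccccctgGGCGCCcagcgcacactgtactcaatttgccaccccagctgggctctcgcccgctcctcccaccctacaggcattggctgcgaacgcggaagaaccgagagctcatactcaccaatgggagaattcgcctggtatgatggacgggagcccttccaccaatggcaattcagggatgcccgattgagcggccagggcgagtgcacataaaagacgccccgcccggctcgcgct
Id3: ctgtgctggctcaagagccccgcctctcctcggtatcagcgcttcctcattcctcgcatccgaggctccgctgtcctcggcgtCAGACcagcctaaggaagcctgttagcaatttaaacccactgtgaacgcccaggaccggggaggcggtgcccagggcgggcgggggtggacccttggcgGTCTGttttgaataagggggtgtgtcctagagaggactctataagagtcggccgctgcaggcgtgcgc
Id4: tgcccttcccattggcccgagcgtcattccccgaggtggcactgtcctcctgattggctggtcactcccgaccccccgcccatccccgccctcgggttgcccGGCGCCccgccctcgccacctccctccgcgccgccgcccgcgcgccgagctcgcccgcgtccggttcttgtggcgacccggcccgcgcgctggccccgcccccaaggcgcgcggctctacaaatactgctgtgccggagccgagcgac
Id2 and Id4, which differ in opposite directions in adenoma, each held 1 match to GGCGCC and 0 to CAGAC, and Id3 held 0 and 2.

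**Figure D3:**
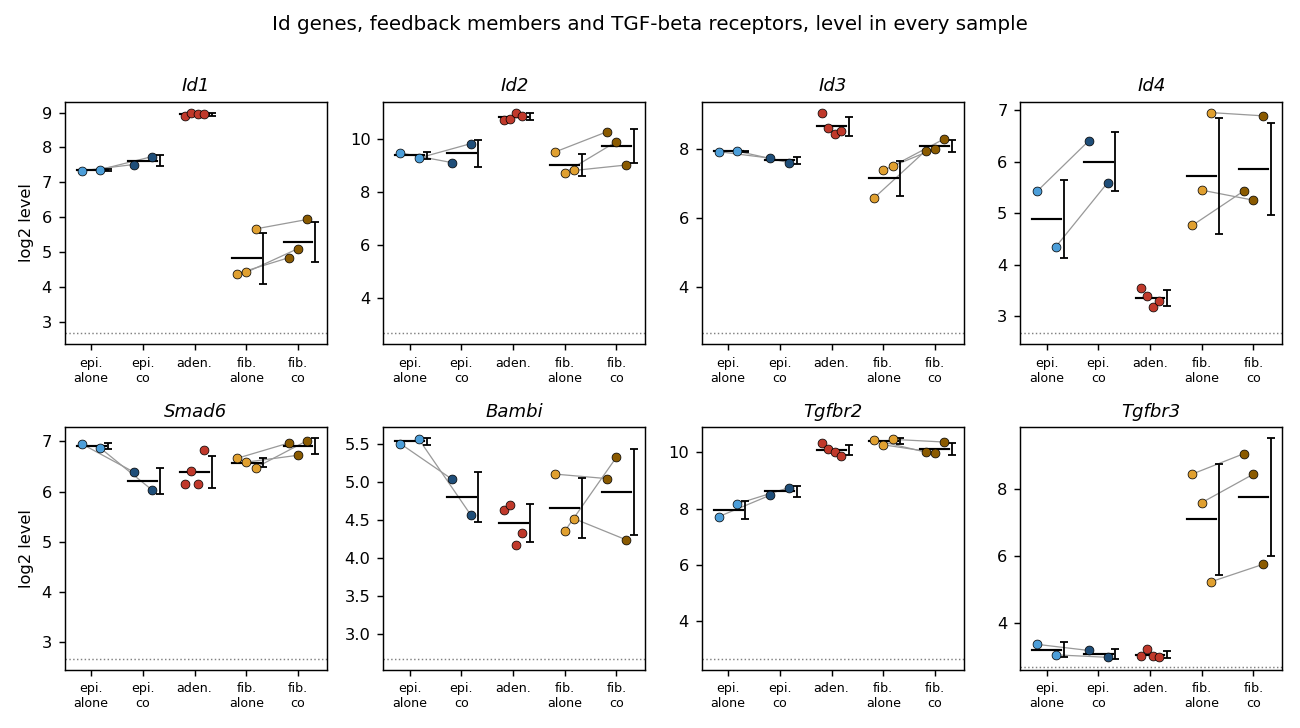
Log2 levels of the Id genes and of feedback inhibitors in the 5 groups; points are samples, black lines means, bars SDs, grey lines join the 2 cultures of an animal, and the dotted line marks the limit for testing (2.67). Id1, Id2 and Id3 are highest in adenoma and Id4 lowest there; the grey lines of Id1, Id2 and Id3 run upward in all 3 fibroblast animals.

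Some of the smaller differences between fibroblasts and epithelium rested on single samples. Alone, the calls of Bambi, Bmp7 and Id3 were lost without P28 or P30, that of Bmpr1a without P30 and that of Smad3 without P28 or Pl_II. Those of Bambi and Bmp7 were also lost without Pl_II, that of Bambi without Pl_III, and those of Bmp7 and Id3 without Pl_I. Adjusted p then reached 0.125 for Bambi, 0.109 for Bmp7, 0.0972 for Id3, 0.0701 for Bmpr1a and 0.119 for Smad3. In co-culture the call of Bmp7 was lost without P28 or P30 (adjusted p up to 0.148), that of Bmp3 without P28 (0.235) and those of Inhbb, Smad1, Smad6 and Smad9 without P30 (0.0655, 0.0716, 0.139 and 0.125).

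The adenoma comparison asked how Apc-mutant tumour cells differ from wild-type epithelium. Higher in adenoma than in epithelium alone were the ligands Bmp7, Tgfb1 and Tgfb3, the antagonist Fst, the matrix carrier Ltbp4, the receptor Tgfbr2, Smad2, and Id1, Id2 and Id3. Lower were Bambi, Smad1 and Smad6. The median difference over the 41 members was 0.22, against -0.028 over all genes tested, and over the 4 Id genes it was 1.10. Both comparisons share the adenoma samples. Side by side, the differences from epithelium alone and from co-cultured epithelium were 4.03 and 4.13 for Fst, 3.60 and 3.90 for Tgfb3, 2.16 and 1.99 for Bmp7, 2.13 and 1.47 for Tgfbr2 and 1.41 and 0.84 for Tgfb1. Tgfb1, Smad2, Bambi and Smad6 were called against epithelium alone only, and Bmp3, Smad5 and Id4 against co-cultured epithelium only. With the animal as a random replicate block, Smad5 and Id4 were also called against epithelium alone (adjusted p = 0.0494 and 0.0262), Tgfb1 was also called against co-cultured epithelium (adjusted p = 0.0421) and the call of Smad6 was lost (adjusted p = 0.0506). Whether a member's 2 differences differ is the co-culture test of epithelium. Without a block none of these members was called in it. With the animal as a replicate block in limma, Tgfbr2 and Id4 were called (adjusted p = 0.0424 and 0.016).

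With 2 epithelial animals, single samples decided some calls. Against epithelium alone, the call of Tgfb3 was lost without P28 (adjusted p = 0.0513), that of Smad2 without P30, and those of Bambi, Id3 and Smad6 without either; adjusted p reached 0.0804 for Smad2, 0.0728 for Bambi, 0.145 for Id3 and 0.226 for Smad6 over the alternatives. Leaving out P21 or P23 also ended the calls of Id3 and Smad6, and leaving out P34 that of Smad6. Without P28 and Pl_III, the animals whose Xist went against the label, Bmp7 was not called either (adjusted p = 0.0848). With 1 sample left out between 9 and 13 members were called. After cyclic loess scaling of the arrays 8 were higher and 5 lower, in place of 10 and 3. Against co-cultured epithelium the number called fell from 12 to 5 without P28 and to 7 without P30; Bmp7, Smad1 and Smad5 were lost without either, Bmp3, Id1, Id2 and Id4 without P28 (Bmp3 also without P21, P34 or P36), and Tgfb3 and Id3 without P30 (adjusted p up to between 0.0522 for Tgfb3 and 0.489 for Bmp3). Epithelial markers averaged 8.94 to 10.23 in adenoma and 11.09 to 11.13 in epithelium alone, and their part in these differences was not tested.

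**Figure D4:**
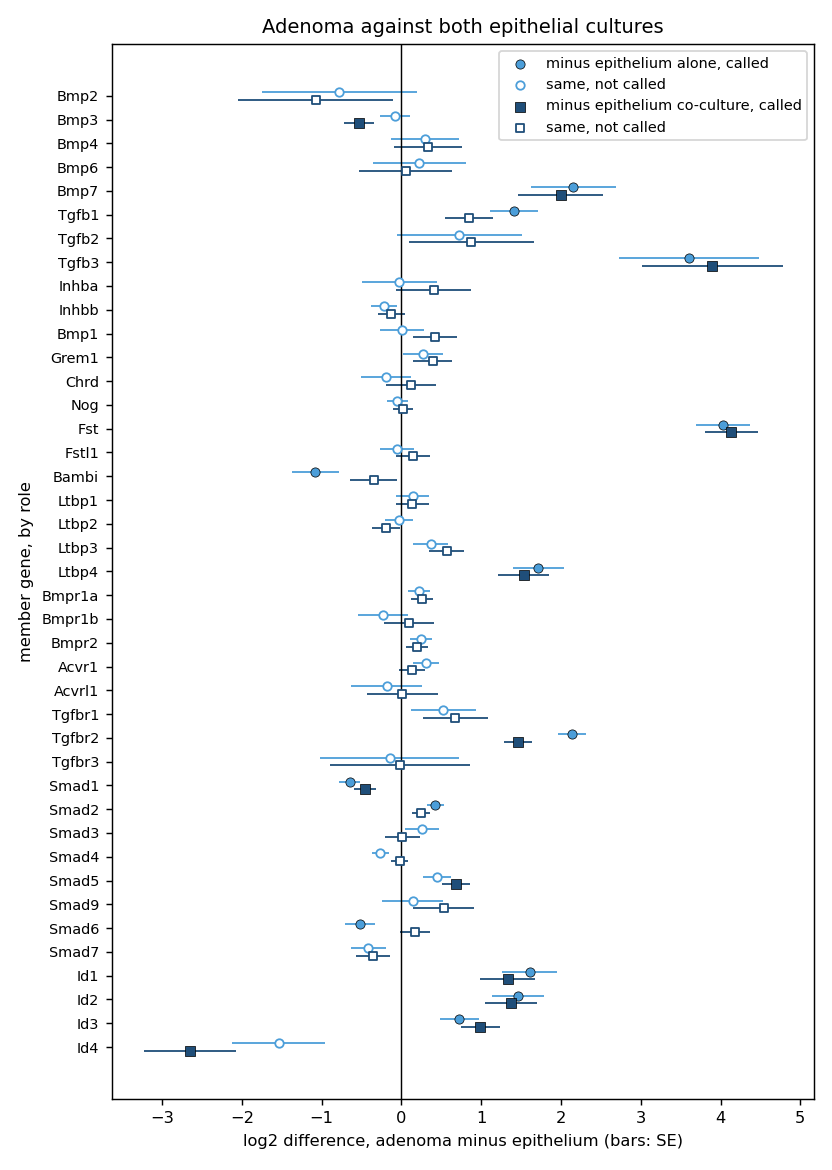
Log2 difference of adenoma from epithelium alone and from co-cultured epithelium for each of the 41 tested members, with bars of 1 SE; filled points were called. Fst, Tgfb3 and Bmp7 lie farthest to the right in both comparisons, and Id4 farthest to the left.

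The co-culture comparisons asked whether each cell type changes these genes when it shares medium with the other. In epithelium 0 of 41 members passed by limma, and 2 had an unadjusted p under 0.05 (16.9% of all genes did). Tgfbr2, at a higher level in both co-cultures, differed by 0.77 and 0.57 in P28 and P30 (0.67 ± 0.20, adjusted p = 0.0997). Smad6 differed by -0.56 and -0.83 (-0.70 ± 0.22, adjusted p = 0.112) and Bambi by -0.47 and -1.00 (-0.73 ± 0.34, adjusted p = 0.306). With the animal as a replicate block, 2 members (4.88%, against 7.57% of all genes) were called higher in co-cultured epithelium, Tgfbr2 (0.67 ± 0.17, adjusted p = 0.0424) and Id4 (1.11 ± 0.21, adjusted p = 0.016; 1.11 ± 0.67, adjusted p = 0.46, without the block). The 2 animals gave Id4 differences of 0.98 and 1.24. Without the block, the SE of a member's difference ran from 0.12 for Smad4 to 1.12 for Bmp2, with a spread shared by fibroblasts and adenoma. The missing calls do not show that levels were alike: the 95% interval in that fit was -0.60 to 1.15 for Id1 and -2.16 to 2.75 for Bmp2. With the block in limma the differences were 0.28 ± 0.13 for Id1 (adjusted p = 0.269) and 0.30 ± 0.56 for Bmp2 (adjusted p = 0.826).

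In fibroblasts 0 of 41 members passed by limma, and 3 had an unadjusted p under 0.05 (2.84% of all genes did). These were Id3, Inhbb and Id2. Id3 differed by 1.37, 0.62 and 0.79 in Pl_I, Pl_II and Pl_III (0.93 ± 0.23, 95% interval 0.42 to 1.43, adjusted p = 1), and all 3 co-cultures were above all 3 monocultures. Id2 differed by 0.76, 1.18 and 0.20 (0.71 ± 0.31) and Id1 by 0.46, 0.68 and 0.27 (0.47 ± 0.33), positive in 3 of 3 animals each. The median over the 4 Id genes was 0.59, against 0.0034 over all genes tested. Inhbb differed by -0.40, -0.18 and -0.56 (-0.38 ± 0.16), negative in 3 of 3 animals. Other members agreed between animals too: of the 43 members, 10 were higher and 12 lower in co-culture in all 3 animals. The share of all genes was not computed, so these counts cannot be read as many or few. With the animal as a replicate block 0 members passed either, and the adjusted p was 0.349 for Id3.

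Whether epithelium and fibroblasts responded differently was tested as the difference of their differences. 0 of 41 members passed by limma, where 1.11% of all genes did, and 3 had an unadjusted p under 0.05 (12.7% of all genes did): Tgfbr2 (0.94 ± 0.26, adjusted p = 0.125), Smad6 (-1.02 ± 0.28, adjusted p = 0.12) and Id3 (-1.19 ± 0.37, adjusted p = 0.167). With the animal as a replicate block in limma Tgfbr3 was called (-0.79 ± 0.18, adjusted p = 0.0499), 1 member (2.44%, against 3.42% of all genes). Its difference was 0.61, 0.85 and 0.52 in the 3 fibroblast animals and -0.18 and -0.07 in the 2 epithelial ones. In epithelium Tgfbr3 lay at 3.36 and 3.04 alone and 3.17 and 2.97 in co-culture, near the limit for testing of 2.67. Low levels are compressed, so a response of epithelium could be missed, and the call rests mainly on the fibroblasts.

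Within adenoma, the 2 animals titled T2 differed from the other 2 in 6 of 41 members, 14.6% against 7.14% of all genes tested. The arrays of each pair were nearly as alike as repeats of 1 animal (SD 0.291 and 0.314), so the SEs and adjusted p here may be too small. The 15 epithelial markers averaged 10.12 and 10.23 in P21 and P23 and 9.095 and 8.939 in P34 and P36. Their part in these differences was not tested. Bmp7 was lower in T2 by 1.91 ± 0.28 (adjusted p = 0.00121), and Smad9 was called higher (adjusted p = 0.00218). For Smad9 the mean of P34 and P36 lay below the limit for testing, so that its difference, taken from the limit, was at least 1.13, and the 2 arrays of P34 differed by 0.787. Fstl1 was lower by 0.72 ± 0.14 (adjusted p = 0.00854), although it lay near the level of epithelium in all 4. Bmp1 and Tgfb1 were higher by 0.83 ± 0.21 and 0.90 ± 0.24 (adjusted p = 0.0354 and 0.044), and Ltbp1 was lower by 0.61 ± 0.16 (adjusted p = 0.0469). Bmp7 and Smad9 were called in every alternative run. The 4 Id genes, Fst and Tgfbr2 were not called between these animals. Tgfb3, at 6.62 and 6.87 in T2 and 8.64 and 8.24 in the others, was not called with all samples and groups fitted. It was called lower in T2 when fitted on the groups compared only, and when P28 and Pl_III were left out. The fit on the groups compared only also called Bmp6 higher in T2 and did not call Fstl1 and Ltbp1. Leaving out any 1 of the 4 animals left 2 or 3 of the 6 calls: those of Bmp1, Tgfb1 and Ltbp1 were lost without each of them (adjusted p up to 0.232, 0.343 and 0.296), and that of Fstl1 without P23 or P34 (up to 0.102).

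**Figure D5:**
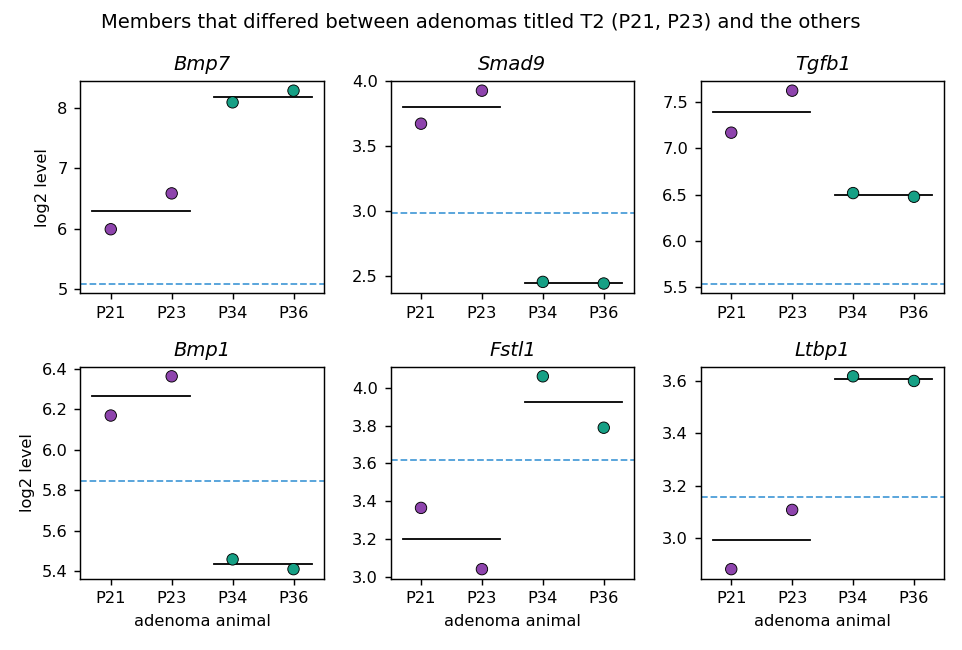
Log2 levels of members that differed between adenoma animals titled T2 (P21, P23) and the others (P34, P36); points are animals, and the dashed line is the mean of epithelium grown alone. Bmp7 lies at 5.99 and 6.59 in the T2 animals and at 8.10 and 8.29 in the others, all above epithelium alone.

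Other genes of the pathway were read from a list of 107, of which 93 were tested. In co-cultured epithelium 6 of the 93 rose and 0 fell, where 2.71% and 1.32% of all genes did so. They were the repressor Tgif1 (1.17 ± 0.18, adjusted p = 0.00416), the feedback inhibitor Pmepa1 (1.81 ± 0.34, adjusted p = 0.0125), the ubiquitin ligase Smurf1 (0.91 ± 0.19, adjusted p = 0.0224), the integrin subunits Itgb6 (1.37 ± 0.27, adjusted p = 0.0167) and Itgav (1.31 ± 0.26, adjusted p = 0.0185), and the ligand Bmp8b (1.89 ± 0.34, adjusted p = 0.00972). Tgif1, Pmepa1 and Smurf1 act inside the cell to limit Smad signalling, and Itgav and Itgb6 together form an integrin that releases TGF-β from its latent complex. In fibroblasts 0 of the 93 changed, and the response of the 2 cell types differed for Tgif1, Pmepa1 and Bmp8b. Each of the 6 epithelial calls was lost without P28 grown alone, with adjusted p up to 0.199 for Tgif1 and 0.265 for Smurf1 over the alternatives, and when P28 and Pl_III were left out; 5 of the 6, all but that of Tgif1, were also lost without at least 1 of the other 3 epithelial samples.

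In adenoma 20 of the 93 were higher and 11 lower than in epithelium alone, where 22.5% and 18.5% of all genes were. Of the 8 tested genes listed under latent TGF-β activation, not all of which release it, 3 were higher and 2 lower. Thbs1 (5.67 ± 0.50, adjusted p = 2.83e-06), Itgb6 (2.93 ± 0.23, adjusted p = 1.22e-06) and Itgav (1.84 ± 0.23, adjusted p = 4.23e-05) were higher, and Emilin1 (-0.70 ± 0.21, adjusted p = 0.0165) and Furin (-0.42 ± 0.13, adjusted p = 0.0209) lower. Of 15 other TGF-β induced genes 3 were higher and 4 lower: Fn1, fibronectin (6.19 ± 0.42, adjusted p = 3.16e-07), and Ccn2 (4.58 ± 0.37, adjusted p = 1.27e-06) were the largest rises, while Tgfbi, named for its induction by TGF-β, was lower by 4.83 ± 0.53 (adjusted p = 1.47e-05). Of 7 other BMP induced genes 2 were higher and 0 lower, Atoh8 (4.03 ± 0.35, adjusted p = 2.34e-06) and Tnfrsf11b (4.49 ± 0.62, adjusted p = 9.65e-05). Of 17 intracellular regulators 7 were higher and 2 lower, with Tgif1 (1.73 ± 0.15) and Pmepa1 (2.10 ± 0.29) higher and the Smad phosphatase Ppm1a lower (-1.02 ± 0.10, adjusted p = 7.20e-06). Of 15 other antagonists and modulators 2 were higher, Twsg1 (1.42 ± 0.18) and Fstl4 (2.97 ± 0.76). Of 18 other ligands 2 were higher and 1 lower, with Gdf11 higher by 1.90 ± 0.35, and of 10 other receptors 0 were higher and 2 lower, Eng (-0.64 ± 0.14) and Acvr1c (-1.51 ± 0.39), the latter not without P28 (adjusted p = 0.182). Against co-cultured epithelium 14 were higher and 9 lower, where 19.0% and 14.3% of all genes were.

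Fibroblasts alone exceeded epithelium in 40 of the 93 and were lower in 12, where 26.5% and 24.2% of all genes were; in co-culture the counts were 39 and 9, against 23.9% and 21.2%. Of the 15 other TGF-β induced genes 10 were higher and 0 lower alone, with a median difference of 4.09 against -0.024 for all genes. This list overlaps the cell type markers: Col1a1 is also a fibroblast marker, and Acta2 and Tagln are markers of myofibroblasts and smooth muscle. A response to TGF-β was not tested. Between T2 and other adenoma 8 were higher and 4 lower, where 3.65% and 3.49% of all genes were, among them Fstl4 (2.98 ± 0.13, adjusted p = 8.08e-08), Itgb8 (1.92 ± 0.15, adjusted p = 1.35e-05), Tgif2 (1.32 ± 0.18), Ski (-1.00 ± 0.15) and the E-protein gene Tcf4 (-1.19 ± 0.17).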

How the data were processed

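RNA (150 ng per sample) was labelled and hybridised to 1-colour whole-transcript arrays, per the labels' protocols. The authors deposited log2 probe set levels, and the submitters' processing notes name RMA as the method. RMA aligns the distributions of the arrays, so a shift of most transcripts in 1 direction would be hidden, and low levels are compressed. Neither the array library nor a genome build is named in the labels used here.

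Of 41345 probe sets 23521 named 1 gene, 1814 several and 16010 none. A gene with several probe sets was represented by the one brightest on average. Repeat arrays of P21 and P34 were averaged, which left 14 samples of 9 animals. Genes were tested where the highest group mean exceeded 2.67, the 30th percentile, which left out 4085 of 22180 genes. limma 3.58.1 in R 4.3.3 fitted 5 group means with 1 shared spread (6 means for the T2 comparison) and Benjamini-Hochberg adjustment, with 11.7 total degrees of freedom. The functions were tested on simulated data.

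The labels put mono- and co-culture on the same animals. Within animals, deviations from group means correlated across genes at 0.328 for epithelium and 0.623, 0.51 and 0.786 for fibroblasts. The animal was a replicate block in an alternative. The members, lists and tests were chosen with earlier results of these data known. Values in every sample are given for the 3 members with the smallest p in each co-culture comparison and between T2 and other adenoma, and for the 2 of each role that differed most in adenoma or in fibroblasts against epithelium alone; Id1 was added to the co-culture values for completeness. Other pathway genes were named from the 4 smallest p per list. Promoters came from RefSeq tables of GRCm38.p6.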

Additional observations from a re-analysis of the deposited data

Results flagged for a closer look

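In adenoma, the Smad1 level of P36 stood apart from those of the other 3 animals. The levels were 6.36, 6.39 and 6.38 in P21, P23 and P34 and 6.70 in P36, and the gap to the nearest animal was 0.929 of the whole range. Chance sets apart about 1 in 20 such groups of 4. The rule was applied to all 43 members and flagged this gene only, so a flag of this kind is not unusual by chance. All 4 levels were below those of every other sample.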

How the results depend on the processing

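The 118 tests of members that were called, were called under any alternative, or had 1 of the 3 smallest p of a co-culture comparison were recomputed 1891 times. 1727 values kept their direction and side of the threshold, 111 lost the call, 40 gained one (in 21 tests that were not called) and 13, all of tests not called, changed sign. Leaving out 1 sample, the difference of adenoma from epithelium alone ran from -0.221 to 0.12 for Fstl1 and from -0.129 to 0.367 for Smad9, that from co-cultured epithelium from -0.0203 to 0.32 for Fstl1, and the difference of responses of Tgfbr3 from -1.79 to 0.141. With only other adenoma, Fstl1 differed from epithelium alone by 0.307, and Smad9 by -0.538 and from co-cultured epithelium by -0.149. Against co-cultured epithelium Fstl1 differed by -0.029 under cyclic loess and by -0.216 with only T2 adenoma, and against epithelium alone Smad9 differed by -0.00992 without P28 and Pl_III. Of 1939 values for 122 tests of other pathway genes, 145 lost their call and 1 changed sign: Bgn, lower in T2 adenoma by 1.64, differed by 0.0645 when all adenoma arrays entered with the animal as a random block, where the other of its 2 probe sets was the brighter. Leaving out 1 sample gave 9 to 13 called members for adenoma against epithelium alone (13 with all samples), 5 to 13 against co-cultured epithelium (12), 25 to 28 and 24 to 30 for fibroblasts against epithelium alone and in co-culture (29 each), and 2 to 3 between T2 and other adenoma (6), and 0 in each co-culture comparison and in their difference. With the animal as a replicate block, 2 members in place of 0 were called in co-cultured epithelium (Tgfbr2 and Id4) and 1 in place of 0 for the difference of responses (Tgfbr3); the block changed no other member's call in the co-culture comparisons. As a random block it gave 14 calls in place of 13 and 13 in place of 12 in adenoma, where Smad5, Id4 and Tgfb1 gained a call and Smad6 lost one, and changed no call in fibroblasts against epithelium. Over all genes the replicate block gave 1370 calls in place of 729 in co-cultured epithelium and 619 in place of 200 for the difference. Without P28 and Pl_III, 7 members in place of 12 were called against co-cultured epithelium, 6 of them shared, and 69 genes in place of 729 in co-cultured epithelium and 5 in place of 200 for the difference. Fitted on the groups compared only, 0 genes passed in co-cultured epithelium. The cause of these changes was not tested, except that fewer samples entered those fits. The alternatives with only T2 or only other adenoma were chosen after seeing the data. With 2 to 4 animals a group, small differences could not be called.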

Other observations

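The 3 E-protein genes, whose products the Id proteins bind, did not move as 1 group. Against epithelium alone, Tcf12 was higher in adenoma by 0.67 ± 0.13 (adjusted p = 0.0011), while Tcf3 differed by 0.46 ± 0.18 (adjusted p = 0.0603) and Tcf4 by 0.49 ± 0.33 (adjusted p = 0.287). Against co-cultured epithelium Tcf3 was higher by 0.94 ± 0.18 (adjusted p = 0.00165) and Tcf12 by 0.44 ± 0.13 (adjusted p = 0.0189), the latter not without P28 or P30. In fibroblasts Tcf4 was higher than in epithelium by 1.32 ± 0.35 alone (adjusted p = 0.00778; not called without P28) and 1.50 ± 0.35 in co-culture (adjusted p = 0.00393).

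Marker lists of intestinal fibroblast subsets were read beside Bmp4 and Grem1. The 5 markers of villus-tip fibroblasts, a source of BMP ligands, averaged 6.91 to 7.30 in co-cultured fibroblasts and 4.57 to 5.24 in epithelium and adenoma. The 5 markers of trophocyte-like cells, a source of Grem1 near the crypt base, averaged 5.19 to 6.07 in co-cultured fibroblasts. They averaged 5.73 to 6.09 in epithelium and 4.49 to 4.72 in adenoma. In epithelium 3 or 4 of the 5 exceeded the limit of 2.67 and Grem1 lay at 2.56 or less, so the average of this list did not follow Grem1. Both lists hold few genes.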
